A study of Mus musculus with 23 samples.

Results

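Gene expression in the forebrain was compared between 6 mouse embryos heterozygous for an allele of Meis1 and 5 wild type embryos, all at embryonic stage E12.5. The comparison holds 11 of the 23 arrays of the series, picked by the genotype, age and tissue that the labels give, and every embryo had an array of its own. All were on the C57BL/6J background, with 3 males and 3 females among the heterozygotes and 3 males and 2 females among the wild types. A further 5 homozygous embryos of the same age and tissue share the statistical fit. A comparison with adults uses 4 heterozygous and 3 wild type males of 23 weeks, measured in whole brain. The labels give no treatment. The labels leave unstated how the allele alters the gene. The title names the ganglionic eminences, the labels forebrain.

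Meis1 codes for a transcription factor of the TALE homeobox class, which binds DNA together with Pbx and Hox proteins. In the embryonic forebrain the Meis genes mark the lateral ganglionic eminence, the source of striatal neurons, and outside the brain Meis1 is needed in the mouse for megakaryocytes, the cells that shed platelets, and for blood stem cells, vessels and the eye. Common human variants at the gene are associated with restless legs syndrome. A heterozygote keeps 1 unaltered copy, so the comparison asks what loss or change of a single copy does at this stage.

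The mouse numbers in the labels begin with a shared figure that was read as the litter, which the labels do not state. By this reading litter 509 held 1 wild type and 1 heterozygote, litter 542 held 2 and 2, litter 551 held 2 and 1, and litter 549 held 0 wild types and 2 heterozygotes. The 2 heterozygotes of litter 549 therefore bear on the comparison through the 2 homozygotes of their litter alone. Of the heterozygotes, 4 shared a litter with wild types, and litter 542 was the one litter with both sexes in both genotypes. In litter 509 the heterozygote was female and the wild type male, so differences within that litter also hold the difference between the sexes. The litter terms passed for 4878 of 14340 probes in the same fit (limma F test, adjusted p under 0.05), or 34%. Sex passed for 10, or 0.0697%, and heterozygote against wild type for 0. These are counts of probes called, and shares of variation were not computed.

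Promoters of the genes described below were searched for TGACAG, the letters that Meis proteins are known to bind, on both strands. Each window ran from 250 bases before to 50 after a RefSeq transcription start (assembly GRCm38.p6), and 6300 of all 32851 such windows held the letters, or 19.2%. Among the 12 genes named as lower in heterozygotes, 10 had 12 windows, of which 1 held them, in Gabrb2, a subunit gene of the GABA-A receptor. Among the 11 named as higher, all 11 had 14 windows in all, of which 2 held them, both in Nfatc3, which codes for a transcription factor activated by calcineurin. The window of Meis1 (chr11:19018920-19019219, minus strand) did not hold them. The 2 windows shown are those of the named genes with the match, at chr11:42420190-42420489 (plus strand) for Gabrb2, where it begins 185 bases before the start, and at chr8:106058568-106058867 (plus strand) for Nfatc3, where it begins 55 bases before the start. Capitals mark the match, which in Gabrb2 lies on the opposite strand and so reads CTGTCA here. A match describes the letters and is not evidence of binding.
Gabrb2: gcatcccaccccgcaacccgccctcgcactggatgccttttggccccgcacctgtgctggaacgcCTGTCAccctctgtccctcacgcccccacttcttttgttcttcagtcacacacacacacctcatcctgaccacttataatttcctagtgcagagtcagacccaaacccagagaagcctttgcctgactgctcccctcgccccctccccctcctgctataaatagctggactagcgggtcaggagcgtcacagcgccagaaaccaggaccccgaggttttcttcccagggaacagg
Nfatc3: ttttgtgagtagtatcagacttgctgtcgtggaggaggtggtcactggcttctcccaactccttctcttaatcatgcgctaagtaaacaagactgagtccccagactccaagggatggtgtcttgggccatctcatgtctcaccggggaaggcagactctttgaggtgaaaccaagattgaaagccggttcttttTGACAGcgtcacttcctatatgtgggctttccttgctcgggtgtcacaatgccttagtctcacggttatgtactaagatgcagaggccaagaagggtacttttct

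The 11 arrays were similar in the count of probes detected. Probes detected above the negative controls (detection p under 0.05) numbered 13453 to 14079 of 25697 on heterozygote and 13446 to 13794 on wild type arrays, a mean difference of 107 (exact two-sided permutation test, p = 0.407). Median signal before normalization lay between 166 and 210 in heterozygotes and between 164 and 182 in wild types. Heterozygote female replicate 1, of litter 551, was the brightest array. Its mean signal was 906, against 562 to 750 on the other heterozygote and wild type arrays. The median correlation of an array with the others of the embryonic set was lowest in wild type male replicate 1, at 0.966. The tissue label was checked on forebrain genes: Dlx1, Dlx2, Nkx2-1, Tbr1, Lhx2, Six3 and Eomes were detected on all 11 arrays, while the probes of Emx2, Gsx2 and Pax6 were detected on none. Of genes that mark other tissues, 18 of 24 Hox genes of hindbrain and spinal cord and 6 of 13 eye genes were detected on none of the 11 arrays, while 21 of 29 genes of meninges and pericytes, 24 of 29 of endothelium and 13 of 18 of red cells were detected on all 11.

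Meis1 itself, on chromosome 11 and read by 1 probe, was lower in heterozygotes. Its log2 signal in wild types was 10.12 in litter 509, 9.93 and 10.17 in litter 542, and 9.94 and 9.75 in litter 551. In heterozygotes it was 9.81 in litter 509, 9.51 and 9.60 in litter 542, 9.43 and 9.71 in litter 549, and 9.68 in litter 551. The groups overlapped by 1 array on each side, since the heterozygote of litter 509 lay above the male wild type of litter 551. Mean log2 signal was 9.62 ± 0.14 (SD, n = 6) against 9.98 ± 0.17 (SD, n = 5), a difference of -0.36 (exact two-sided permutation test over 462 splits, which exchange arrays across litters and sexes, p = 0.00649, where 0.00433 is the smallest possible).

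With litter and sex in the fit, the log2 change of Meis1 was -0.40 ± 0.11 (SE), which puts the heterozygote level at 75.8% of the wild type level, with a 95% interval from 63.9% to 89.8%. Within litters the difference was -0.31 (509), -0.50 (542) and -0.17 (551), lower in each. By limma its unadjusted p was 0.00341, rank 18 among all probes, and adjusted over them it missed the threshold (adjusted p = 0.999). The homozygote value beside it, measured against the same 5 wild type arrays, was 0.430 of the wild type level, which lies below the heterozygote interval. Where the probe lies relative to the altered stretch of the gene is not known, and fewer cells with Meis1 and less Meis1 RNA per cell cannot be told apart in such tissue samples.

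**Figure D1:**
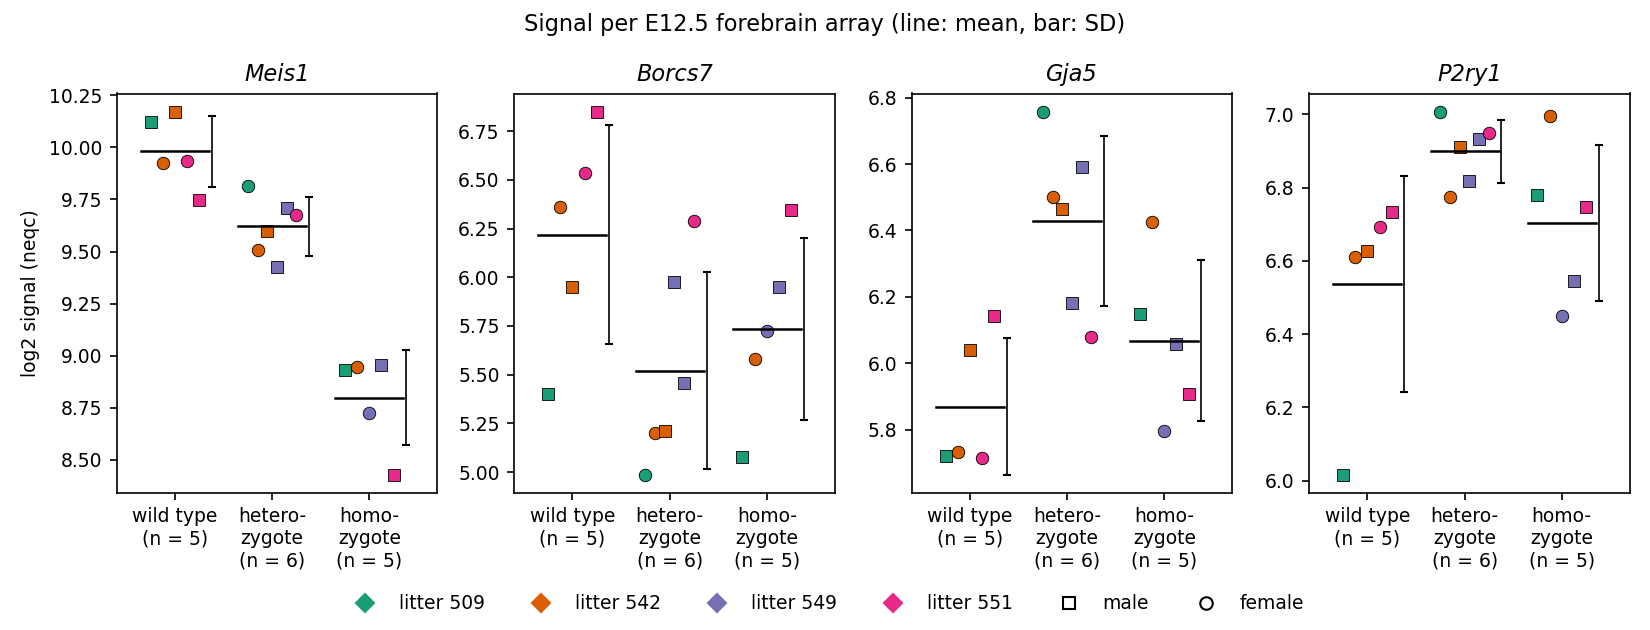
Log2 signal (vertical axis) of 4 genes on each E12.5 forebrain array, by genotype, with litter in colour and sex by symbol; horizontal lines are group means and bars are SDs. Meis1 steps down from wild type over heterozygote to homozygote, Borcs7 overlaps widely between genotypes, and the 6 heterozygotes lie above the 5 wild types for P2ry1 and 1 wild type lies above the lowest heterozygote for Gja5.

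Across the transcriptome no probe passed. Limma called 0 of 14340 probes between heterozygotes and wild types, or 0%, and the smallest adjusted p was 0.999. Before adjustment, p was under 0.05 for 476 probes, or 3.32%, of which 283 were lower (1.97%) and 193 higher (1.35%) in heterozygotes. With no effect on any probe, a share of 0.05 would lie under that threshold, which is more than was seen. The 6 heterozygote and 5 wild type arrays did not overlap for 20 probes (0.139%), 12 of them lower (0.0837%) and 8 higher (0.0558%). The sign was the same within all 3 litters with both genotypes for 1890 probes that were lower (13.2%) and 1682 that were higher (11.7%). None of these counts is read as a sign of an effect of genotype.

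The intervals say how large an effect these arrays leave room for on the normalized log2 scale. The log2 changes had an SD of 0.14 over probes, beside a median SE of 0.13 and a median half-width of 0.27 for the 95% interval. For 14270 probes, or 99.5%, the 95% interval excluded a 2-fold change in either direction, and for 12958, or 90.4%, it excluded a 1.5-fold change. For dim probes the size depends on the processing: Borcs7 read -0.65 here, -0.20 without background correction and -0.99 with the authors' values. For such probes the intervals bound the change on this scale and not the change in RNA. By estimate, 5 probes were lower and 14 higher by over 1.5-fold, and 1 by over 2-fold. That probe reads Prap1, a secreted proline-rich protein of epithelia, named after its value was seen. Its log2 change was -1.28 ± 0.77, it was detected on 2 of 6 heterozygote and 2 of 5 wild type arrays, and within litters it read 0.14 (509), -3.17 (542) and 0.43 (551), so litter 542 alone sets its direction.

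**Figure D2:**
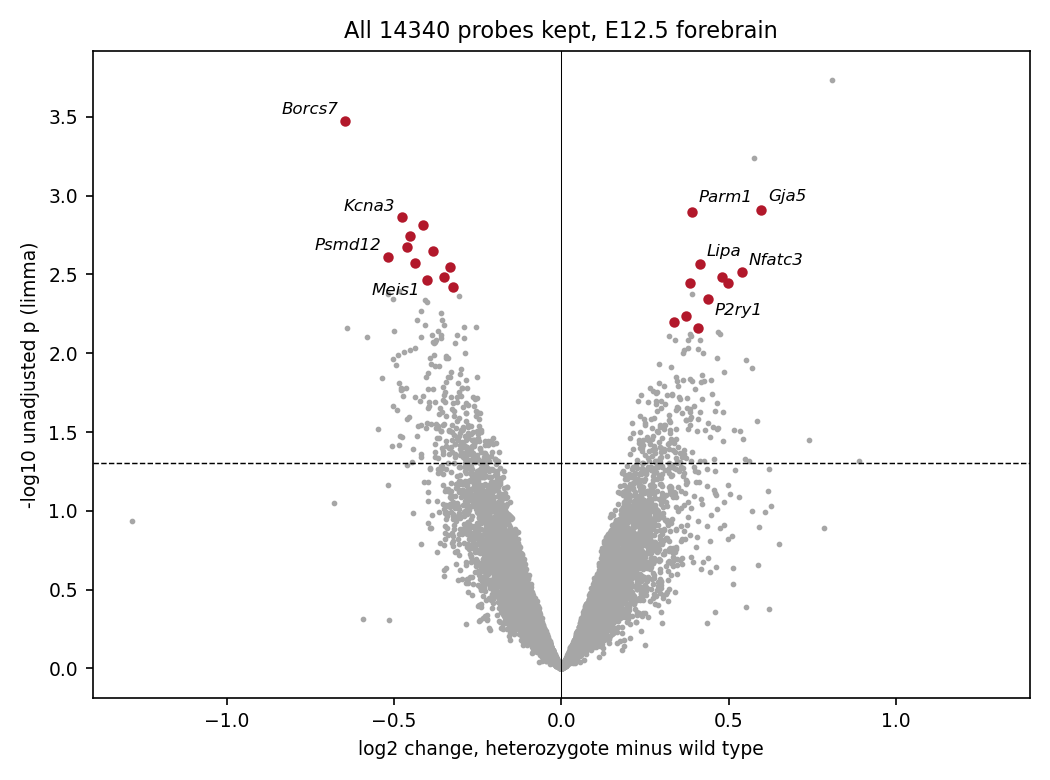
Log2 change (horizontal axis, heterozygote minus wild type) against -log10 of the unadjusted limma p-value (vertical axis) for the 14340 probes kept, with the probes of the genes named by rank in red and a dashed line at 0.05. No probe passes after adjustment, and 5 probes lie beyond a 1.5-fold change on the left and 14 on the right.

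The 12 genes with the smallest p-values among those lower in heterozygotes included Meis1 itself. The adjusted p was 0.999 for each, so their values describe these arrays. Most were dim: 5 of the 12 were detected on all 11 arrays, and log2 changes ran in size from 0.32 to 0.65. Borcs7 codes for a subunit of BORC, the complex that couples lysosomes to kinesin for transport toward the cell edge. Its log2 signal in wild types was 5.40 (litter 509), 6.36 and 5.95 (542), and 6.54 and 6.85 (551), and in the 6 heterozygotes the lowest, median and highest were 4.99, 5.34 and 6.29. Litters differed more than genotypes, and the heterozygote of litter 551 lay above 2 wild types. The log2 change of Borcs7 was -0.65 ± 0.14 (limma, unadjusted p = 0.000335), from -0.41 (litter 509) and -0.40 (551) to -0.95 (542). It was detected on 3 of 6 heterozygote and 5 of 5 wild type arrays.

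A pair of voltage-gated potassium channel genes stood among the 12. Kcna3, for the channel Kv1.3, read 6.30, 6.19, 5.77, 5.45 and 5.74 in wild types and 5.26, 5.68 and 6.08 (lowest, median, highest) in heterozygotes on the log2 scale. The groups overlapped over most of their range, and the change with litter in the fit was -0.48 ± 0.12, with -0.32 (509), -0.56 (542) and -0.34 (551) within litters. Kcna10, a related channel gene, was at -0.32 ± 0.09 and was detected on 1 of 6 heterozygote and 4 of 5 wild type arrays. Gabrb2, whose promoter is printed above, was at -0.45 ± 0.12, detected on 1 of 6 and 3 of 5 arrays, and within litter 509 it was higher in the heterozygote, by 0.19. Rab3b, a small GTPase gene of synaptic vesicle release, was at -0.44 ± 0.12. Its wild types read 5.56, 5.61, 5.82, 5.96 and 5.82, and its heterozygotes ran from 5.06 over a median of 5.31 to 5.60, so 1 heterozygote lay above the lowest wild type.

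Mttp, the microsomal transfer protein that loads lipid onto lipoproteins, was detected on all 11 arrays. Its log2 signal was 5.84, 6.24, 5.97, 5.78 and 5.90 in wild types, and 5.38, 5.51 and 5.96 (lowest, median, highest) in heterozygotes. Of the heterozygotes 5 lay below each wild type, and heterozygote male replicate 2 lay among them. The change of Mttp was -0.46 ± 0.12, with -0.27 (509), -0.60 (542) and -0.46 (551) within litters. Hlf, a leucine zipper transcription factor gene, was at -0.33 ± 0.09 and was detected on 1 of 6 and 4 of 5 arrays. Gm11733, a predicted gene with no role given here, was at -0.41 ± 0.11.

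For 3 of the lower genes a second probe was kept, and it did not carry the difference. Psmd12, a lid subunit of the proteasome, read -0.52 ± 0.14 by its dimmer probe, at a mean log2 signal of 6.44 in heterozygotes and 6.94 in wild types, and -0.01 ± 0.10 by its brighter one, at 11.14 and 11.22. Within litter 551 the dimmer probe of Psmd12 was higher in the heterozygote, by 0.10. Xpo7, an exportin of nuclear transport, read -0.38 ± 0.10 and 0.11 ± 0.14. Tex2, a lipid-transfer protein of the endoplasmic reticulum, read -0.35 ± 0.10 and -0.08 ± 0.13. Probes of a gene can read different transcripts, which was not tested.

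The 11 genes reported with the smallest p-values among those higher in heterozygotes had log2 changes from 0.34 to 0.60, again with adjusted p = 0.999 each, and 6 of the 11 were detected on all 11 arrays. Gja5, which codes for connexin 40, the gap junction protein of arterial endothelium, read 5.72, 5.73, 6.04, 5.71 and 6.14 in wild types. Its heterozygotes ran from 6.08 over a median of 6.48 to 6.76, and the lowest of them lay below 1 wild type. The log2 change of Gja5 was 0.60 ± 0.15, with 1.04 (509), 0.60 (542) and 0.15 (551) within litters, and a second, brighter probe read 0.39 ± 0.16.

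P2ry1 and Atp2a3 were the named genes whose groups did not overlap. Over all probes the same held for 20 of 14340 (0.139%), and both genes were named by p-value in these same arrays. P2ry1, an ADP receptor of platelets that is also found in other cells, read 6.02 (litter 509), 6.61 and 6.63 (542), and 6.69 and 6.73 (551) in wild types. Its heterozygotes ran from 6.77 over a median of 6.92 to 7.01, a narrow band just above 4 of the wild types. The log2 change was 0.44 ± 0.13, and it was 0.99 within litter 509, where the 1 wild type lay far below, but 0.22 (542) and 0.24 (551) in the other litters. Without that wild type (male replicate 2), the change of P2ry1 was 0.29.

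Atp2a3, the SERCA3 calcium pump of platelets and other blood cells, read 4.82, 5.07, 5.24, 5.30 and 5.41 in wild types and 5.45, 5.59 and 5.88 (lowest, median, highest) in heterozygotes. It was detected on 6 of 6 heterozygote arrays but on 2 of 5 wild type arrays. The change was 0.48 ± 0.14 by this probe and 0.45 ± 0.16 by a second one, and within litters the first read 1.06 (509), 0.39 (542) and 0.28 (551). Without wild type male replicate 2 it was 0.36.

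Prrx1, a homeobox gene of embryonic mesenchyme, was at 0.50 ± 0.14. Its wild types read 5.64, 5.95, 6.44, 5.60 and 6.14 and its heterozygotes 6.26, 6.43 and 6.61 (lowest, median, highest), so 1 wild type lay within the heterozygote range. A pair of brighter probes of Prrx1 read 0.26 ± 0.20 and 0.14 ± 0.17, and a further one was detected on 3 of 6 heterozygote and 0 of 5 wild type arrays. Tead3, a DNA-binding partner of the coactivators Yap and Taz, was at 0.41 ± 0.13 and was detected on 4 of 6 and 1 of 5 arrays. Parm1, a mucin-like membrane protein gene, was at 0.39 ± 0.10, and its brighter second probe read 0.15 ± 0.13.

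Nfatc3, with the second promoter above, read 6.12, 5.42, 6.08, 5.02 and 4.73 in wild types and 5.32, 6.16 and 6.62 (lowest, median, highest) in heterozygotes. Its level followed the litters, with 551 lowest in both genotypes. The change of Nfatc3 was 0.54 ± 0.15 in the fit, and 0.49 (509), 0.45 (542) and 0.44 (551) within litters. It was detected on 6 of 6 heterozygote and 3 of 5 wild type arrays. The wild types of litter 551 gave its lowest signals, so the difference there lies near background. Drd2, the dopamine receptor of indirect-pathway striatal neurons, was not well above background on any of 5 wild type arrays and was detected on 4 of 6 heterozygote arrays. Its measured means were 5.38 ± 0.19 (SD, n = 6) and 5.03 ± 0.12 (SD, n = 5), and against the lowest detected signal of each wild type array it was at least 1.04-fold higher in heterozygotes (limma adjusted p = 0.999).

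Lipa codes for the lysosomal acid lipase, which frees cholesterol and fatty acids from lipids taken into lysosomes. Its log2 signal was 6.38, 6.47, 6.54, 5.97 and 5.93 in wild types, and 6.35, 6.56 and 6.79 (lowest, median, highest) in heterozygotes. The low wild types were both of litter 551, where the difference was 0.60, against 0.19 in litter 509 and in litter 542, and the fit gave 0.42 ± 0.12. Wasf2, an activator of actin branching, was at 0.38 ± 0.11, with 0.24 (509), 0.43 (542) and 0.34 (551) within litters. Dusp16, a phosphatase that acts on the kinase JNK, was at 0.37 ± 0.12 by a dim probe, while its 2 brighter probes read 0.19 ± 0.10 and 0.08 ± 0.10.

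**Figure D3:**
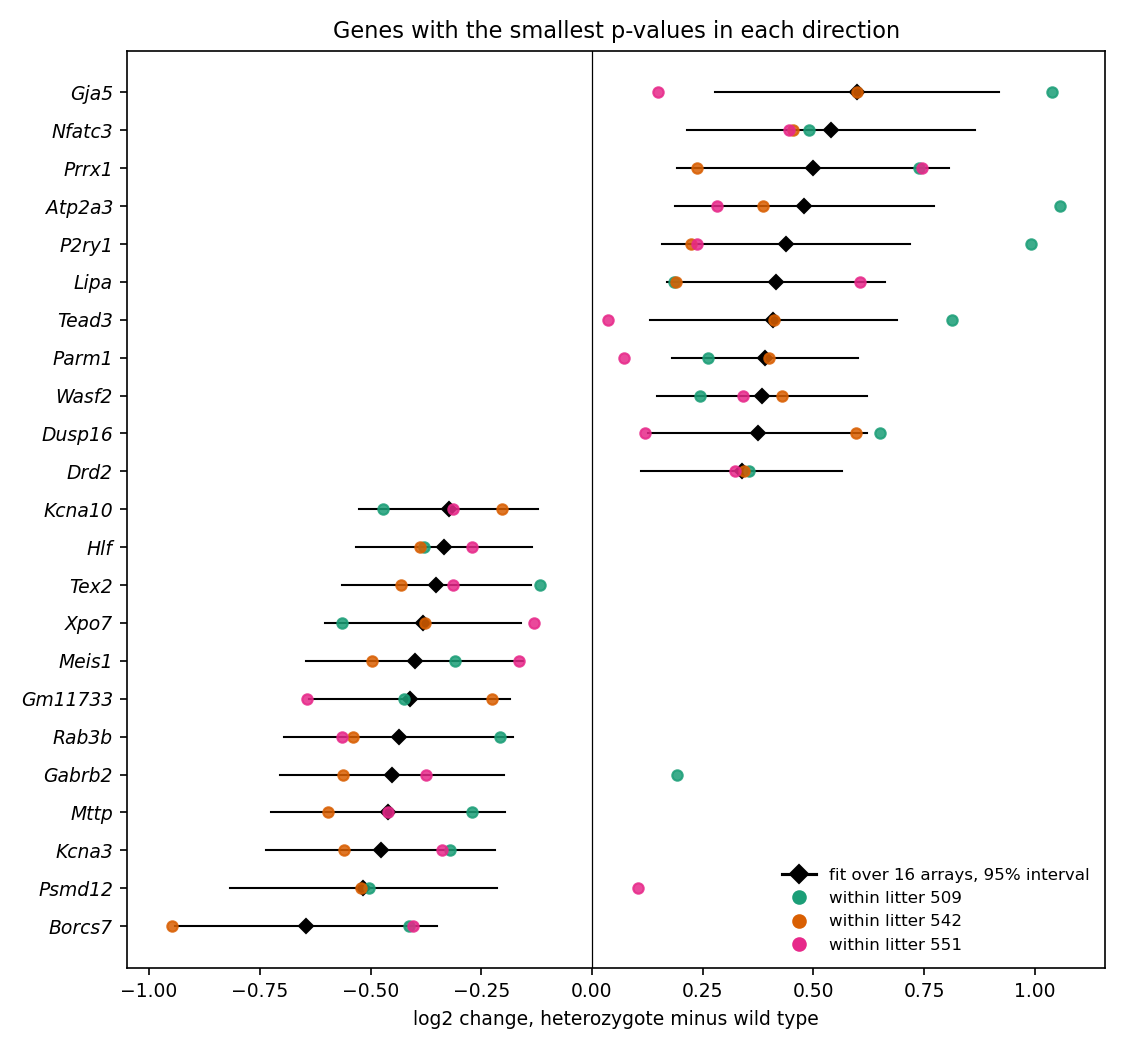
Log2 change, heterozygote minus wild type, of the genes reported by rank: black diamonds with 95% intervals from the fit over 16 arrays, and coloured points for the plain difference of means within each litter that held both genotypes. Points within litters lie on the side of the fit except for Gabrb2 in litter 509 and Psmd12 in litter 551, and the largest positive ones, for Gja5, Atp2a3 and P2ry1, come from litter 509.

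Gene lists for blood, vessels, forebrain regions, neurons and signalling were described by their counts and medians, 1 probe per gene. Over all 9731 genes tested, 4795 (49.3%) were higher in heterozygotes, the median log2 change was -0.00, and the quartiles were -0.08 and 0.08. Of these genes, 123 were higher and 205 lower at an unadjusted p under 0.05. No member of any of the 34 lists was called over all probes, where 0% of probes were.

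Genes of megakaryocytes and platelets stood furthest from the median of all genes. All 16 members tested were higher in heterozygotes, with a median of 0.29, and 5 of them had an unadjusted p under 0.05 by limma: Thbs1, a platelet granule and matrix glycoprotein (0.55 ± 0.19), Pf4, a granule chemokine (0.55 ± 0.25), Gp5, a glycoprotein of the platelet receptor complex for von Willebrand factor (0.47 ± 0.19), Atp2a3 (by its second probe) and Vwf, von Willebrand factor (0.41 ± 0.14). Nfe2, a transcription factor of platelet formation and the member with the highest signal, was at 0.39 ± 0.30. The median difference was 0.94 within litter 509, 0.29 within 542 and -0.08 within 551. Per array, the list's median ranged from 0.09 to 0.45 in heterozygotes and from -0.31 to 0.23 in wild types, relative to each gene's wild type mean, so the groups overlapped.

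The platelet list rested in part on the 2 wild types at the bottom, male replicates 2 and 3. Without wild type male replicate 2 its median was 0.20 with 13 of 16 higher, and without wild type male replicate 3 it was 0.15 with 16 of 16 higher. Without heterozygote female replicate 1, the one heterozygote of litter 551, it was 0.48. Leaving out litter 509 gave 0.18 with 13 of 16 higher, and leaving out litter 551 gave 0.50 with 16 of 16. The fits that leave out litter 509, 542 or 551, here and below, were added after seeing the data. The summed linear signal of the platelet genes ran from 2642 to 3692 in heterozygotes and from 1836 to 3244 in wild types, and P2ry12, Rab27b and Selp were detected on none of the 11 arrays. In homozygotes, set against the same wild types, the median of the list was -0.56. For Pf4 the heterozygote and homozygote values stood at 0.55 and -1.09, and for Gp5 at 0.47 and -0.77.

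Red cell genes were higher in 13 of 14 cases, with a median of 0.23 and 0 members at an unadjusted p under 0.05. The globin genes Hba-x, Hbb-y and Hba-a1 lay near the top of the signal range, where quantile normalization gives the arrays the same highest values, so no difference was read from them. The count and the median of the list include globins. Ermap, a blood group protein of red cell membranes, had the largest value of the list, 0.61 ± 0.35, and Rhag, a membrane channel of the Rh complex, read 0.41 ± 0.27. Within litters the red cell median was 0.58 (509), 0.39 (542) and -0.43 (551), so its direction turned in litter 551. Without heterozygote female replicate 1 it was 0.48, without heterozygote female replicate 2 it was 0.08, and without wild type male replicate 3 it was 0.09. The summed signal of the red cell list ran from 103444 to 122919 in heterozygotes and from 95937 to 114584 in wild types. This sum includes globins at the top of the range, so no difference was read from it. Gata1, Epb42 and Rhd were detected on none of the 11 arrays.

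Vessel and connective tissue genes lay somewhat above the median of all genes. In the endothelial list 19 of 26 were higher, with a median of 0.10. Vwf (0.41 ± 0.14) and Ets1, a transcription factor (0.24 ± 0.09), had an unadjusted p under 0.05, and Slc7a5, an amino acid transporter of the blood-brain barrier and the brightest member, was at -0.06 ± 0.10. In the list of meninges and pericytes 18 of 27 were higher, with a median of 0.14, led by Twist1, a transcription factor of mesenchyme (0.46 ± 0.21), Foxc1, a regulator of the meninges (0.41 ± 0.16), and Acta2, smooth muscle actin (0.37 ± 0.19), while Rgs5, a marker of pericytes, read -0.24 ± 0.21. The median of this list was 0.31, 0.10 and -0.14 within litters 509, 542 and 551, and it was 0.04 without wild type male replicate 2 and 0.06 without heterozygote female replicate 2. In males alone it was -0.01, with 13 of 27 higher. Macrophage and microglia genes were higher in 10 of 15 cases (median 0.07), with Laptm5, the brightest, at 0.05 ± 0.11 and Csf2ra at -0.20 ± 0.10, and Ptprc, Itgam and Spi1 were detected on none of the 11 arrays.

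**Figure D4:**
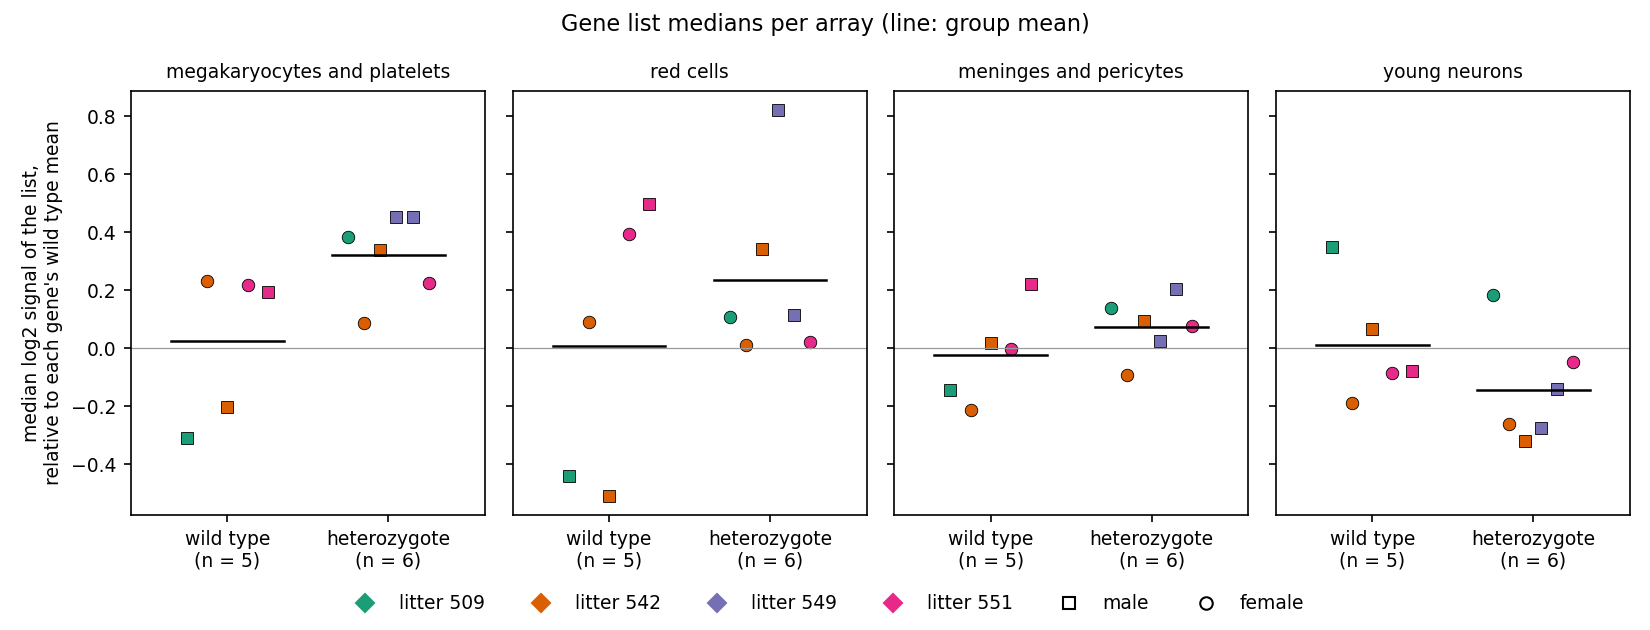
Median log2 signal of 4 gene lists on each array (vertical axis), relative to each gene's wild type mean, with litter in colour, sex by symbol and lines at group means. Platelet genes sit lowest in the wild type males of litters 509 and 542, red cell genes are high in both wild types of litter 551, and the groups overlap in all 4 lists.

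Among the forebrain genes used to check the tissue, 2 of 7 were higher, with a median of -0.12. In the lateral ganglionic eminence 7 of 20 members were higher, with a median of -0.05. Meis2, the brightest member there and a close relative of Meis1, was at -0.09 ± 0.14. The median of the TALE homeobox list was 0.00, with 5 of 10 members higher, and besides Meis1 its values ran up to 0.20 ± 0.10 for Pbx2, a partner of Meis proteins on DNA. In the medial ganglionic eminence 1 of 11 was higher, with a median of -0.08, but without litter 542 the median was 0.02 with 6 of 11 higher, and within litter 551 it was 0.03. Its largest value was that of Sst, the somatostatin gene of interneurons, at -0.34 ± 0.19, and Zic1 was at -0.11 ± 0.12. In the dorsal pallium, source of the cortex, 3 of 12 were higher (median -0.09), with Neurog2 at -0.08 ± 0.15 and Neurod2 at -0.34 ± 0.20.

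Outside these regions, 13 of 19 genes of the cortical hem and choroid plexus were higher (median 0.08), with Msx2, a homeobox gene, at 0.45 ± 0.17 and Ttr, the transthyretin of choroid plexus, at -0.35 ± 0.24. In the diencephalon and midbrain list 7 of 14 were higher. There En1, a midbrain homeobox gene, was at 0.59 ± 0.24, with 1.32 (509), 0.66 (542) and -0.16 (551) within litters, and Tcf7l2 was at -0.12 ± 0.20. Of the 13 eye genes on the array 2 were detected on all 11 arrays, and Rax, Mitf, Tyr and Tyrp1 were among the 6 detected on none. Their summed linear signal was 767 to 844 in heterozygotes and 854 to 923 in wild types. Of the 5 eye genes tested 1 was higher, with a median of -0.03, and the median per array overlapped between the groups (-0.26 to 0.07 in heterozygotes and -0.28 to 0.09 in wild types). Dct, an enzyme of pigment cells and the brightest, read -0.23 ± 0.11, and Cryba1, a lens crystallin, read 0.26 ± 0.20. Whether eye tissue in the dissection moves with other values here was not tested.

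Young neuron genes were lower in 14 of 18 cases, with a median of -0.12, and neuropeptide genes in 12 of 17, with a median of -0.13. Gap43, a growth cone protein, was at -0.35 ± 0.13 with an unadjusted p under 0.05, Stmn1, a microtubule regulator, at -0.46 ± 0.22 and the brightest member, Stmn2, at -0.17 ± 0.10. Scg3, a protein of secretory granules, was at -0.28 ± 0.12. The median of young neuron genes was -0.18 (509), -0.15 (542) and 0.02 (551) within litters, and it was -0.02 without litter 542. That of neuropeptide genes was -0.17 (509), -0.20 (542) and 0.03 (551) within litters, and without litter 542 it turned to 0.05, with 11 of 17 higher. Radial glia and progenitor genes were higher in 12 of 21 cases (median 0.01), with Vim at 0.08 ± 0.13, cell cycle genes in 13 of 20 (median 0.06), with Cenpa at -0.02 ± 0.09, and genes of p53 and cell death in 6 of 12 (median -0.00).

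Potassium channel genes were lower in 11 of 17 cases with a median of -0.05, and the median within each of the 3 litters was -0.12. Besides Kcna3, Kcnc1 (-0.28 ± 0.11) and Kcnn1 (-0.24 ± 0.11) had an unadjusted p under 0.05. Genes of GABA signalling were lower in 8 of 10 cases (median -0.09), among them Gabrb2 and Slc32a1, the vesicular GABA transporter (-0.32 ± 0.13), while within litters the median was 0.02, -0.13 and 0.13 in 509, 542 and 551. For lysosome transport by BORC and BLOC-1, 8 of 16 members were higher, and the list around Borcs7 had a median of -0.00. Dtnbp1, a BLOC-1 subunit, was at -0.21 ± 0.10. Lysosomal enzyme genes other than Lipa gave no shared direction, with 16 of 29 of the list higher (median 0.02) and Psap, the brightest, at -0.02 ± 0.10.

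Of the signalling lists, retinoic acid genes were higher in 8 of 11 cases (median 0.10), with the receptor gene Rarg at 0.46 ± 0.24, and hedgehog genes in 7 of 9 (median 0.04), with the transcription factor gene Gli3 at 0.35 ± 0.16. Notch genes were higher in 15 of 23 cases (median 0.03), with Mfng, a glycosyltransferase that tunes Notch receptors, at -0.42 ± 0.16 and Notch1 at -0.28 ± 0.12. Wnt genes were higher in 15 of 27 (median 0.00), with the receptor gene Fzd7 at 0.36 ± 0.14, and axon guidance genes in 14 of 31 (median -0.03). Hypoxia and glycolysis genes were higher in 15 of 23 cases (median 0.07), with Epas1 at 0.37 ± 0.15 and Gapdh at -0.04 ± 0.09.

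Genes at other loci associated with restless legs syndrome were higher in 3 of 9 cases (median -0.03), and the largest value among them was -0.12 ± 0.17, for Crbn. Iron handling genes were higher in 13 of 17 cases (median 0.07), with the ferritin heavy chain gene Fth1 at 0.07 ± 0.09 and Aco1, the iron sensor that controls ferritin translation, at -0.33 ± 0.12. Dopamine genes were higher in 10 of 14 cases (median 0.07), with Pts, an enzyme of the cofactor for dopamine synthesis, at -0.16 ± 0.12, En1 at 0.59 ± 0.24 as above, and Slc18a2, the vesicular monoamine transporter, at -0.36 ± 0.17. Genes near Meis1 on chromosome 11 were higher in 9 of 19 cases (median -0.01), with Etaa1, a replication stress gene, at 0.24 ± 0.11 and Otx1 at -0.03 ± 0.12.

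**Figure D5:**
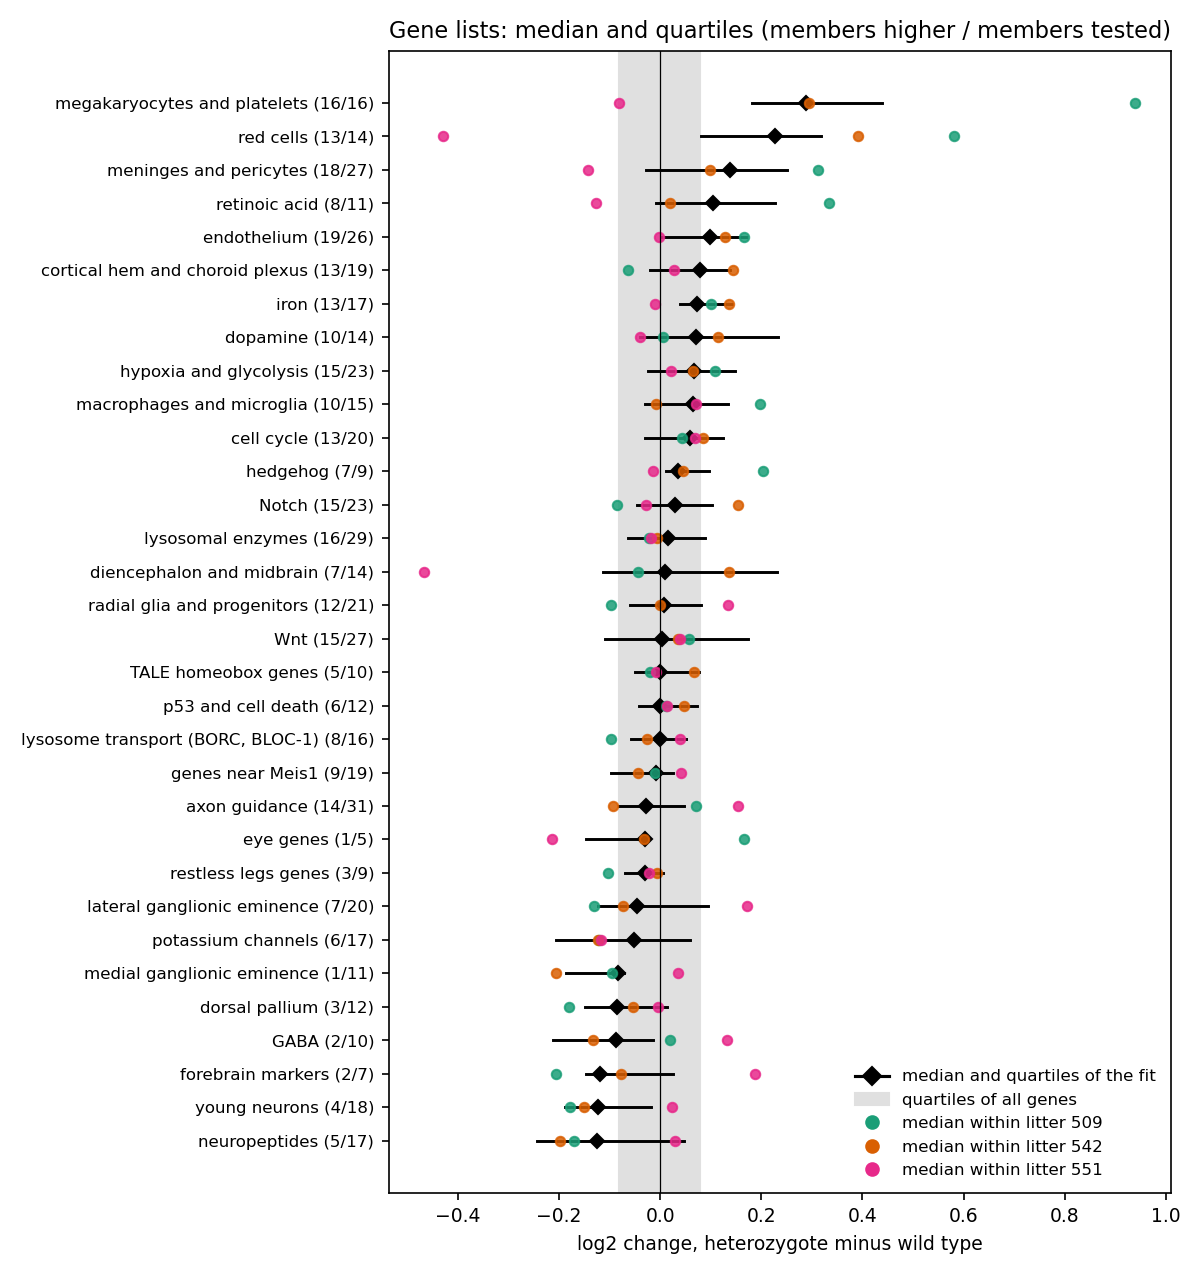
Median log2 change (horizontal axis, heterozygote minus wild type) of each gene list with at least 5 members tested, with quartiles as bars, the counts of members higher and tested in the labels, medians within litters as coloured points and the quartiles of all genes in grey. The platelet and red cell lists lie furthest to the right and the neuropeptide and young neuron lists furthest to the left, and in each of these 4 lists the point for litter 551 lies on the other side of 0.

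The difference between heterozygotes and wild types was tested between the sexes. Limma called 0 of 14340 probes, or 0%, with 395 at an unadjusted p under 0.05 (2.75%). For Meis1 the change was -0.34 ± 0.18 in females and -0.47 ± 0.19 in males, and the difference of the changes was 0.14 ± 0.26 (unadjusted p = 0.615 by limma). The smallest p-values belonged to Nckap1l, an actin regulator of blood cells, Ociad2, a mitochondrial protein gene, and Pigc, an enzyme of the GPI anchor. Nckap1l read 0.34 ± 0.16 in females and -0.83 ± 0.17 in males, a difference of 1.17 ± 0.24. For Ociad2 the difference was -1.07 ± 0.23 and for Pigc 0.89 ± 0.20, with adjusted p = 0.999 for all 3 by limma.

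The heterozygote effect was also set against that in adult male brain, in a joint fit of all 23 arrays in which no wild type is shared between the ages. The adults are whole brain of males and the embryos forebrain of both sexes, so age cannot be told apart from tissue or sex here. Limma called 0 of 16352 probes for the difference of the effects, or 0%, with 1108 at an unadjusted p under 0.05 (6.78%). In the adult alone it called 19, or 0.116%, with 1504 at an unadjusted p under 0.05 (9.2%). Meis1 in adults was 9.44, 9.10 and 8.77 on the log2 scale in wild types and 8.69, 8.60, 8.54 and 7.87 in heterozygotes, without overlap. Its adult change was -0.67 ± 0.18, and the E12.5 change was the smaller one by 0.28 ± 0.23 (limma adjusted p = 0.839). Of the 12 genes named as lower at E12.5, 9 were detected on all 7 adult arrays, and of these, Meis1 among them, 6 were lower and 3 higher in adult heterozygotes. Of the 11 named as higher, 5 were detected on all 7, of which 3 were higher and 2 lower. Detected or not, the 12 split into 6 lower and 6 higher in adults, and the 11 into 4 higher and 7 lower. The share over all probes was not counted, so no agreement between the ages is read from these counts. Gabrb2 stood at -0.46 ± 0.14 and Borcs7 at -0.33 ± 0.21 in adults, while Kcna3 stood at 0.04 ± 0.13. The 3 smallest p-values for a difference between the ages belonged to Dydc2, Pramel27 and D3Ertd751e, with adjusted p from 0.104 to 0.170 by limma. Each was detected on 3 of 3 adult wild type and 0 of 4 adult heterozygote arrays. Against the lowest detected signal of each adult heterozygote array, the adult wild type level was at least 1.27-fold higher for Dydc2, 1.17-fold for Pramel27 and 1.41-fold for D3Ertd751e. Dydc2 and Pramel27 were detected on none of the 11 embryonic arrays. Of the heterozygote and wild type arrays, only the 3 adult wild types therefore counted toward keeping these genes, which took 3 arrays. Their rank and folds are thus tied to the filter and give no independent support for a difference.

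The values of the named genes in homozygotes were set beside those in heterozygotes, and both are measured against the same 5 wild type arrays. Borcs7 was at -0.65 ± 0.14 in heterozygotes and -0.46 ± 0.15 in homozygotes, and Kcna3 at -0.48 ± 0.12 and -0.42 ± 0.13. Psmd12 was at -0.52 ± 0.14 and -0.85 ± 0.15 by its dimmer probe, while its brighter probe read -0.01 ± 0.10 in heterozygotes. Mttp was at -0.46 ± 0.12 and -0.17 ± 0.13, and Xpo7 at -0.38 ± 0.10 and 0.05 ± 0.11. Among the higher genes, Lipa was at 0.42 ± 0.12 and 0.76 ± 0.12, Wasf2 at 0.38 ± 0.11 and 0.58 ± 0.12, Nfatc3 at 0.54 ± 0.15 and 0.57 ± 0.16, and Gja5 at 0.60 ± 0.15 and 0.25 ± 0.16. Atp2a3 was at 0.48 ± 0.14 in heterozygotes and -0.16 ± 0.14 in homozygotes.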

How the data were processed

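Total RNA from mouse forebrain was hybridised, 1 array per embryo, to Illumina arrays of 25697 probes. The deposited table used here holds, per the file headers, an intensity and a detection p-value for each probe and array, not normalized by the authors, made with GenomeStudio 2011.1 per the submitters' processing notes. A further deposited table of intensity processed by the authors served as an alternative. Signals were background-corrected and quantile normalized with neqc (offset 16) in limma 3.58.1 (R 4.3.3) and put on the log2 scale, with the 16 embryonic arrays together. A probe was kept if at least 5 of these arrays gave it a detection p under 0.05. One model held genotype, sex and litter, with two-sided tests and Benjamini-Hochberg adjustment over all 14340 probes at 0.05. The comparison with adults used 23 arrays normalized together and 16352 probes, each detected on at least 3 of these arrays. Errors of changes are SEs, and the number of arrays limits the precision. P-values thus weigh an effect against the variation among these embryos.

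Of the probes 23978 carried 1 gene symbol and 0 several, and 23962 matched the RefSeq table by Entrez number, with 0 symbols changed. Named were Meis1, the 12 smallest p-values per direction (1 probe per gene), up to 2 members per list (the brightest and the largest change, by the brightest probe of each gene) and the 3 smallest p-values of the tests by sex and by age. Further list members named beside an unadjusted p or as examples, and Prap1, were chosen after their values were seen. One gene that the rule names is not reported here. The lists, members and tests were chosen with earlier results of these data known. Replicate numbers in the labels do not pair the samples, since the labels give them no shared source and the deviations of same-numbered arrays correlated between -0.03 and 0.74. The fits were tested on simulated data. Alternatives covered the normalization, background, filter, litter, sex, variance model, arrays in the fit and each array left out.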

Additional observations from a re-analysis of the deposited data

Results flagged for a closer look

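Among 48 groups of values checked, 3 held an array far from the others, where chance gives about 1 in 20. P2ry1 read 6.02 in wild type male replicate 2, the one wild type of litter 509, while the other wild types ran from 6.61 to 6.73. Mttp read 5.96 in heterozygote male replicate 2, above the other heterozygotes at 5.38 to 5.59. Gm11733 read 5.38 in wild type male replicate 3, below the other wild types at 5.61 to 5.68.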

How the results depend on the processing

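The count of probes called between heterozygotes and wild types was 0 in all 33 alternatives, with 227 (no litter term) to 1292 (array weights) probes at an unadjusted p under 0.05. The number of arrays limits what could be called. Meis1 was lower in all 33, from -0.61 (males alone) to -0.34 (quantile normalization without background correction), and from -0.48 to -0.35 with 1 array left out, with limma adjusted p no lower than 0.383. With the replicate number as a block in place of litter, the count was 0 and Meis1 was at -0.37 ± 0.13, and the block changed no other call. The other 22 genes reported by rank kept their sign in 714 of 714 fits. They were picked by p-value in these same arrays, so the count is no independent support for their direction. Without background correction dim genes shrank, Borcs7 to -0.20 and Gja5 to 0.21. With the values processed by the authors they were larger, Borcs7 at -0.99 and Gja5 at 0.78. Of 1120 list medians recomputed, 1103 moved by less than 1 SD between replicates and 17 by more. For some lists that SD exceeded the median itself, as for red cells (0.39 against 0.23). A move of less than 1 SD could therefore change the sign, as in the medial ganglionic eminence (-0.08, and 0.02 without litter 542). The count is thus no measure of a stable direction. The median of red cell genes ran from 0.08 to 0.61 and that of platelets from 0.11 to 0.50. Calls for a different effect between the ages were 0 in the fit reported, 4 without the filter (D3Ertd751e, Dydc2, Insm1, Pramel27) and 0 to 4 with 1 array left out. The 4 came without adult wild type male replicate 1 (Dydc2, Otop2, S100a5, Scgn), 2 without adult heterozygote male replicate 1 (Olfr310, Pramel27) and 1 without adult heterozygote male replicate 2 (S100a5). The cause was not tested. Calls for a difference between the sexes were 0 in all 18 alternatives.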
